A study of Zea mays subsp. mays x Zea mays subsp. mexicana with 20 samples.

Results

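Small RNA loci that had reads in pollen of some maize genotypes and no read at all in others were collected from a count table of 3 genotypes with 2 libraries each. A locus was taken if its count was 0 in both libraries of at least 1 genotype and it reached at least 3 CPM (the count per 1000000 counts of its library) in both libraries of at least 1 other. The rule found 1058 of 85421 loci. These loci were chosen by their counts, so the counts below describe them and carry no test.

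The dcl2-mu1 plants were homozygous for a *Mu* transposon insertion in the 5′ leader of *Dcl2*, in stocks backcrossed to the maize inbred W22. The dcl2T plants were homozygous for the *Dcl2* allele of teosinte *mexicana*, recovered as recombinants from a *mexicana* line that had been backcrossed to W22. The Dcl2 plants carried the functional allele and served as wild type. No age was given for the plants. The whole series had 20 samples, of which 14 from other genotypes and tissues were not analysed here. In these stocks the allele at *Dcl2* and other sequence carried along from the *Mu* line or from *mexicana* cannot be told apart. The table named loci by number and position and gave no genes, so that neither the state of *Dcl2* nor pollen marker genes were checked. Positions are those of the deposited table, and its genome build is not stated in the study's methods or the labels. No reference sequence was at hand and no base sequence is shown.

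*Dcl2* encodes a Dicer-like enzyme. Such enzymes cut long double-stranded RNA into the short pieces called siRNAs, and in maize DCL2 is known for the class of 22-nt siRNAs, many of which arise from RNA that folds back into a hairpin. Other Dicer-like enzymes make the shorter and longer siRNA classes and the microRNAs. A locus in the table is a stretch of the genome where small RNA reads of all lengths pile up, so a locus can hold siRNAs from more than 1 of these enzymes.

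The dcl2-mu1 libraries had total counts of 1950081 and 4083990, those of dcl2T 4357765 and 4920576, and those of Dcl2 3966305 and 4392281. In dcl2-mu1 replicate 1, 78.3% of all loci had no read, against 34.7% to 53.3% in the other 5 libraries, so this library stood apart. Of the 85421 loci, 73110 had a read in any of the 6 libraries, and the rest raise all of these shares. The main counts, positions and shares that rest on dcl2-mu1 replicate 1 are also given without it. A count of 0 in both libraries of a genotype allows up to 3 counts, or 0.497 CPM in dcl2-mu1, 0.323 CPM in dcl2T and 0.359 CPM in Dcl2. Reads amplified from the same molecule are not independent, and the limits account for counting error alone. A value of 3 CPM came to between 5.85 and 14.8 counts, depending on the library.

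Absence was mostly absence from dcl2-mu1. Of the 1058 loci, 772 (73.0%) had no read in dcl2-mu1 alone, 36 had none in dcl2T alone and 148 had none in Dcl2 alone. The other loci had reads in a single genotype. There were 58 with no read in dcl2-mu1 and dcl2T, 32 with none in dcl2-mu1 and Dcl2, and 12 with none in dcl2T and Dcl2. Of the 772 loci missing in dcl2-mu1 alone, 130 reached 3 CPM in both other genotypes, 335 in dcl2T only and 307 in Dcl2 only. Of the 148 missing in Dcl2 alone, 97 reached 3 CPM only in dcl2-mu1, 43 only in dcl2T and 8 in both. The 36 missing in dcl2T alone reached it in dcl2-mu1 in 20 cases and in Dcl2 in 16.

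**Figure D1:**
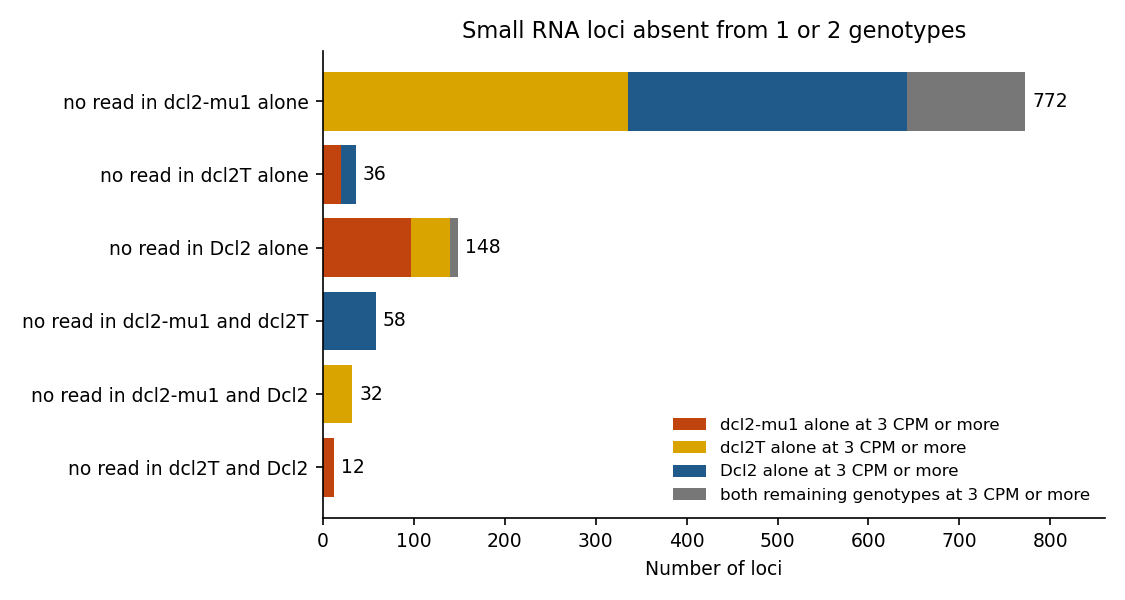
Number of loci (x axis) in each pattern of absence (y axis), with bars divided by the genotypes in which both libraries reached 3 CPM. The bar for no read in dcl2-mu1 alone stands at 772 loci, against 148 for no read in Dcl2 alone and 36 for no read in dcl2T alone.

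The absent loci were of low abundance. The level of a locus was its highest mean among the genotypes where both libraries reached 3 CPM. The median level of the absent loci was 5.63 CPM. It was 8.95 CPM over the pool of 12917 loci that reached 3 CPM in both libraries of at least 1 genotype. The pool contains the absent loci. Pool loci can draw the highest mean from all genotypes, while absent loci cannot, which favours higher levels in the pool. Of the absent loci 79.6% lay under 10 CPM, against 55.1% of the pool, and 13 absent loci against 1381 of the pool reached 50 CPM. They were also shorter, with a median length of 1121.5 bp against 1848 bp in the pool, without matching for level. Lengths differed between patterns, with medians of 1235 bp for loci without a read in dcl2-mu1 alone, 656.5 bp for dcl2T alone and 1087.5 bp for Dcl2 alone. The loci read only in Dcl2 had a median of 458.5 bp and those read only in dcl2T a median of 431 bp. The 2 libraries of a genotype in which a locus was present differed by a median of 1.34-fold, against 1.37-fold in the pool, and by more than 2-fold in 16.6% of cases, against 17.7%. The share above 2-fold was 13.7% for loci missing in dcl2-mu1 alone and 15.6% for those read only in dcl2T, and in the other 4 patterns it was higher than in the pool, from 25.6% for loci missing in Dcl2 alone to 33.3% for those read only in dcl2-mu1.

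All 1058 loci together held a small share of the reads. It came to 0.565% and 0.123% of the counts in dcl2-mu1, to 0.586% and 0.625% in dcl2T, and to 0.560% and 0.657% in Dcl2. The higher share in dcl2-mu1 replicate 1 came mainly from Cluster_9898, a locus of 25 bp on chromosome 1 (247230094 to 247230118). It held 3816 CPM in dcl2-mu1 replicate 1 and none in dcl2-mu1 replicate 2, 109 and 438 CPM in dcl2T, and no read in Dcl2. The dcl2-mu1 libraries thus disagreed on it completely, and the rule included it through dcl2T.

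Among the loci missing in dcl2-mu1 alone, the most abundant was Cluster_57455 on chromosome 6 (166466808 to 166467371). It had no read in dcl2-mu1, 388 and 413 CPM in dcl2T, and 349 and 351 CPM in Dcl2. With the floor of 3 counts, it was at least 805-fold lower in dcl2-mu1 than in dcl2T and at least 703-fold lower than in Dcl2, while the values of the other genotypes lay close together. Cluster_60726 on chromosome 7 (84210175 to 84212784) had no read in dcl2-mu1, 129 and 124 CPM in dcl2T, and 78.4 and 239 CPM in Dcl2, where the libraries differed most. It was at least 319-fold lower in dcl2-mu1 than in Dcl2. Cluster_65745 on chromosome 8 (20129338 to 20129822) likewise had none in dcl2-mu1, with 67.7 and 73.8 CPM in dcl2T and 96.6 and 110 CPM in Dcl2, at least 207-fold lower than in Dcl2.

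Cluster_9026 on chromosome 1 (228149708 to 228151325) belonged to the same pattern by the rule and looked different. It had no read in dcl2-mu1, 222 and 70.1 CPM in dcl2T, and 0 and 0.228 CPM in Dcl2, where the whole signal was a single count. This locus was in effect read in dcl2T alone, which shows that 1 count can decide the pattern to which a locus is assigned.

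**Figure D2:**
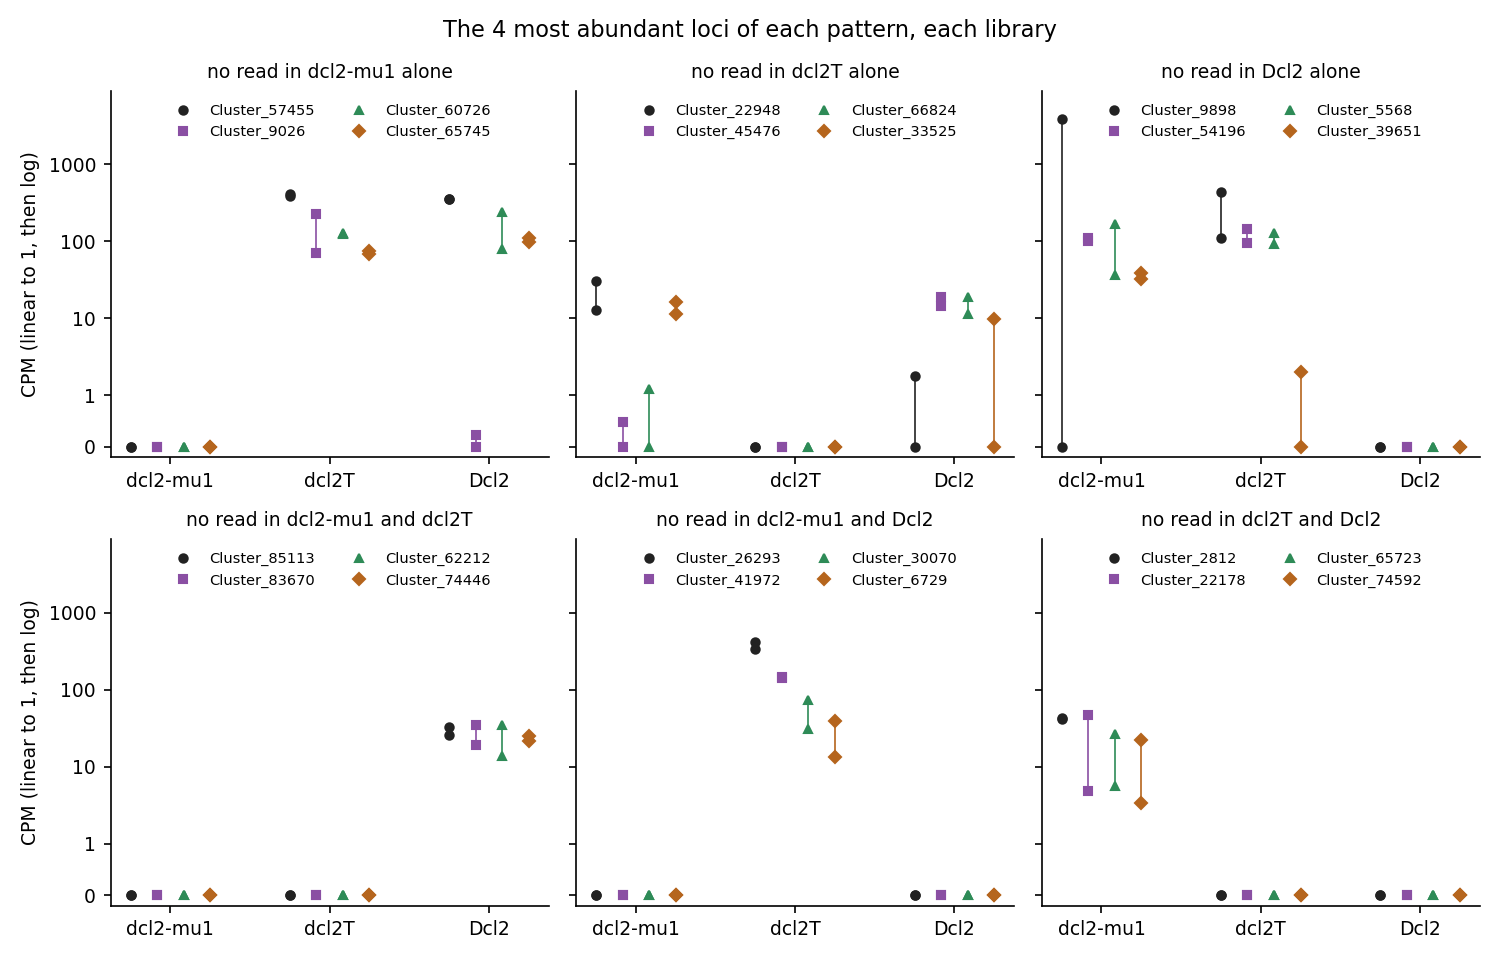
CPM in each library (y axis, linear up to 1 CPM and logarithmic above) of the 4 most abundant loci of each pattern, by genotype (x axis), with a line joining the 2 libraries of a genotype. Cluster_57455 stands at 349 to 413 CPM in dcl2T and Dcl2 and at 0 in dcl2-mu1, and Cluster_9898 spans 0 to 3816 CPM between the 2 dcl2-mu1 libraries.

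Loci missing in dcl2-mu1 alone were not a set that was equal in the other 2 genotypes. The median log2 ratio of dcl2T over Dcl2, with 0.5 CPM added to each mean, was 0.03 for these 772 loci and 0.22 for the pool. Only 353 of the 772 (45.7%) lay within 2-fold between dcl2T and Dcl2, against 73.7% of the pool. At 64 loci dcl2T was at least 4-fold higher than Dcl2, and at 172 loci it was at least 4-fold lower. The rule asked for 3 CPM in only 1 of these genotypes and so let in loci that were low in the other.

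**Figure D3:**
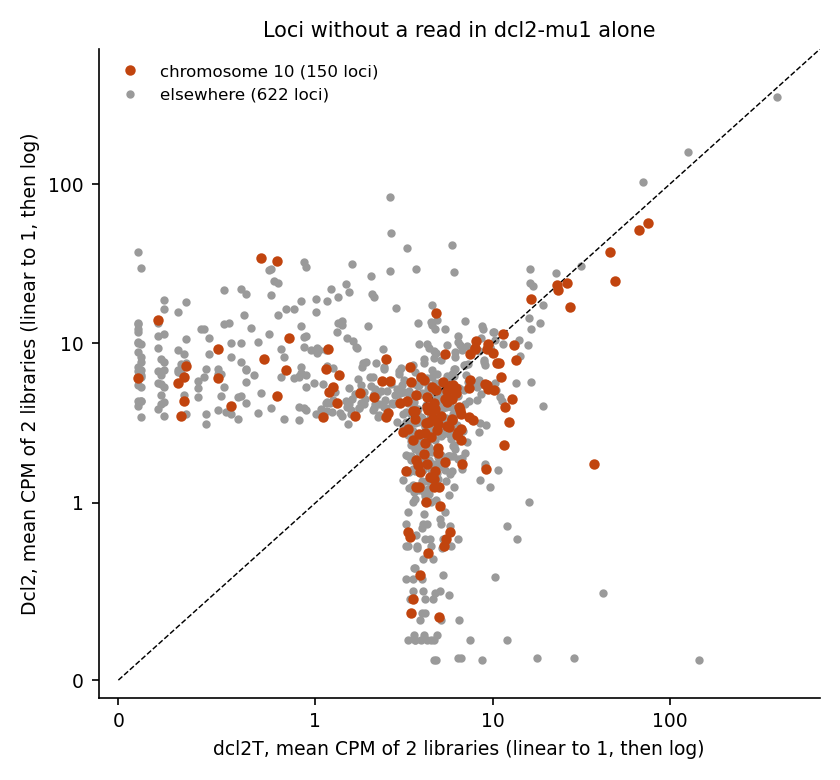
Mean CPM of the 2 dcl2T libraries (x axis) against mean CPM of the 2 Dcl2 libraries (y axis), each linear to 1 CPM and logarithmic above, for the 772 loci without a read in dcl2-mu1 alone. The dashed line marks equal values. Chromosome 10 loci (red) lay within 2-fold of each other in 57.3% of cases and the remaining loci (grey) in 42.9%.

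The 172 loci included several of more than 25 CPM in Dcl2 that had a few CPM in dcl2T, named here after their values were seen. Cluster_26036 on chromosome 3 (96251937 to 96254767) had no read in dcl2-mu1, 1.61 and 3.66 CPM in dcl2T, and 63.8 and 101 CPM in Dcl2. Cluster_25814 on the same chromosome (89565408 to 89569231) had none in dcl2-mu1, 2.07 and 3.25 CPM in dcl2T, and 39.3 and 59.2 CPM in Dcl2. Cluster_27387, also on chromosome 3 (137586767 to 137588464), had none in dcl2-mu1, 2.07 and 4.47 CPM in dcl2T, and 42.1 and 37.1 CPM in Dcl2. At all 3 loci the dcl2T libraries lay far below both Dcl2 libraries and above 0. Cluster_11996 on chromosome 1 (296096363 to 296097367) showed the opposite order, with no read in dcl2-mu1, 51.2 and 33.1 CPM in dcl2T, and 0.756 and 0.228 CPM in Dcl2.

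The number of loci that could be found missing was similar for each genotype, so their shares can be set side by side. Of the loci at 3 CPM or more in both libraries of another genotype, 862 of 10951 (7.87%) had no read in dcl2-mu1, 106 of 10472 (1.01%) had none in dcl2T, and 192 of 11521 (1.67%) had none in Dcl2. When every library was thinned to 1950081 counts these shares became 10.4%, 1.78% and 3.27%, in the same order. In single libraries the share without a read was 33.4% and 9.96% in dcl2-mu1, 2.90% and 2.86% in dcl2T, and 6.18% and 5.80% in Dcl2. At equal depth it was 35.7% and 13.4% in dcl2-mu1, 5.38% and 5.26% in dcl2T, and 9.77% and 9.55% in Dcl2. Both dcl2-mu1 libraries lay above all 4 others, with and without thinning, and dcl2-mu1 replicate 1 lay far above its own replicate.

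Missing loci became rarer with level and with length in all 3 genotypes. A count of 0 is likelier at low levels by counting alone, and length was not separated from level. For dcl2-mu1 the share without a read was 13.8% among loci of 3 to 5 CPM elsewhere, 8.59% at 5 to 10 CPM, 5.34% at 10 to 30 CPM and 1.35% at 30 CPM or more. For dcl2T it was 2.10% at 3 to 5 CPM and 0.0519% at 30 CPM or more, and for Dcl2 it was 3.63% and 0.454%. By length, the share for dcl2-mu1 was 16.6% in loci of up to 200 bp and 3.27% in loci over 2000 bp. For dcl2T these shares were 7.23% and 0.0974%, and for Dcl2 they were 5.06% and 0.307%. With dcl2-mu1 replicate 1 left out, the dcl2-mu1 shares were 17.8% at 3 to 5 CPM and 1.64% at 30 CPM or more, and 19.8% and 4.54% for the shortest and longest loci.

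A zero in 1 library was followed by a zero in its replicate in a minority of cases, except where the deeper dcl2-mu1 library was the first. Of 3658 such loci without a read in dcl2-mu1 replicate 1, 862 (23.6%) had none in replicate 2 and 39.4% had 3 CPM or more there. Of 1091 loci without a read in dcl2-mu1 replicate 2, 79.0% had none in replicate 1. For loci with a read in the first library, a zero in the other was seen in 3.14% and 28.4%. In dcl2T a zero in replicate 1 or 2 was matched by a zero in the other library at 34.9% and 35.3% of loci, against 1.91% and 1.95% of loci with a read. In Dcl2 these shares were 26.97% and 28.7%, against 4.40% and 4.79%. These are descriptions over loci, which are not independent replicates.

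The loci missing in dcl2-mu1 alone lay on chromosome 10 more often than other loci did. Chromosome 10 held 150 of the 772 (19.4%), against 7.14% of the pool and 7.10% of all loci. Of the chromosome 10 loci at 3 CPM or more in both libraries of another genotype, 154 of 800 (19.25%) had no read in dcl2-mu1, against 6.97% elsewhere. The other chromosomes ranged from 4.94% on chromosome 2 to 9.81% on chromosome 9, and the unplaced scaffolds stood at 16.2%. On chromosome 10 the share was 0.674% for dcl2T and 0.737% for Dcl2, no higher than the 1.04% and 1.74% of the rest of the genome. It was 17.8% of the loci missing in dcl2-mu1 alone when dcl2-mu1 replicate 1 was left out and 9.86% when dcl2-mu1 replicate 2 was left out.

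**Figure D4:**
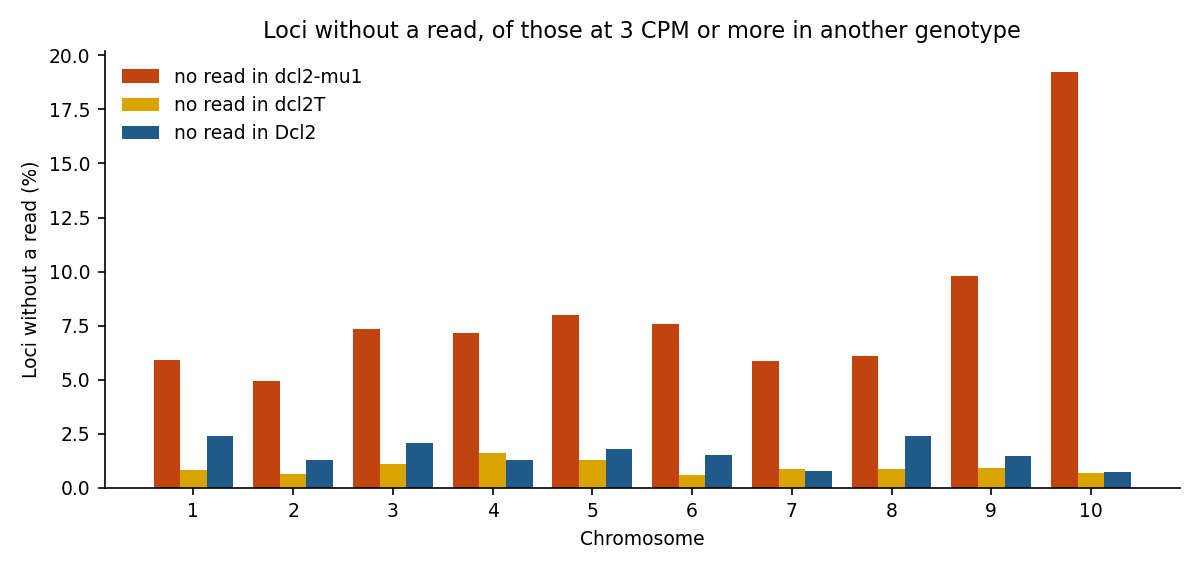
Share of loci without a read in a genotype (y axis, percent), of those at 3 CPM or more in both libraries of another genotype, by chromosome (x axis), for dcl2-mu1, dcl2T and Dcl2. The dcl2-mu1 bar stands at 19.25% on chromosome 10 and between 4.94% and 9.81% on the other chromosomes.

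Both dcl2-mu1 libraries showed this when read apart. Of the loci at 3 CPM or more in both Dcl2 libraries, dcl2-mu1 replicate 1 had no read at 37.5% on chromosome 10 and 26.0% elsewhere, and replicate 2 had none at 18.04% and 7.23%. With the loci chosen in dcl2T, the shares were 39.5% and 27.6% in replicate 1 and 19.6% and 6.08% in replicate 2. The levels of the loci chosen in Dcl2 were also lower on chromosome 10, with medians of 4.62 and 4.90 CPM in the dcl2-mu1 libraries, against 8.20 and 8.81 CPM elsewhere. In Dcl2 itself the same loci had medians of 9.00 CPM on chromosome 10 and 9.17 CPM elsewhere. Among all loci of chromosome 10, 18.5% and 39.1% had a read in the dcl2-mu1 libraries, against 21.9% and 47.3% of loci elsewhere. In dcl2T and Dcl2 these shares differed by less than 1 percentage point between chromosome 10 and the rest.

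The loci were spread along chromosome 10. In its 15 windows of 10 Mb the share without a read in dcl2-mu1 was between 5.88% and 39.5%. The window from 120 to 130 Mb held 19 loci missing in dcl2-mu1 alone, of 76 in the pool, the most of any window in the genome. The windows from 60 to 70 Mb, 80 to 90 Mb and 140 to 150 Mb held 15 each, of 44, 46 and 140 in the pool. On chromosome 10, 42 of the 150 loci reached 3 CPM in both other genotypes, 66 only in dcl2T and 42 only in Dcl2. The median log2 ratio of dcl2T over Dcl2 was 0.33 on chromosome 10 and -0.11 elsewhere.

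Single loci on chromosome 10 had similar levels in dcl2T and Dcl2. In the window from 120 to 130 Mb, Cluster_83666 (126110447 to 126110797) had no read in dcl2-mu1, 74.3 and 76.0 CPM in dcl2T, and 60.3 and 53.0 CPM in Dcl2, at least 113.9-fold lower in dcl2-mu1 than in Dcl2. Cluster_83463 (121449773 to 121453543) had none in dcl2-mu1, 23.2 and 31.7 CPM in dcl2T, and 14.6 and 19.4 CPM in Dcl2. Cluster_83748 (128560187 to 128560792) was less even, with none in dcl2-mu1, 0 and 9.55 CPM in dcl2T, and 12.4 and 18.7 CPM in Dcl2. Between 60 and 70 Mb, Cluster_81162 (64173062 to 64175363) had none in dcl2-mu1, 19.0 and 26.8 CPM in dcl2T, and 16.4 and 30.3 CPM in Dcl2. Cluster_81122 (63118106 to 63124833), at 6728 bp the longest of all absent loci, had none in dcl2-mu1, 13.3 and 13.0 CPM in dcl2T, and 9.33 and 10.2 CPM in Dcl2. Cluster_81247 (66906462 to 66908744) had none in dcl2-mu1, 12.6 and 6.30 CPM in dcl2T, and 11.1 and 8.65 CPM in Dcl2. At all of these except Cluster_83748, every dcl2T and Dcl2 library was above 6 CPM.

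Missing loci were in part neighbours. Of the 772 loci missing in dcl2-mu1 alone, 120 had another such locus within 10 kb and 230 within 100 kb. In the table, 103 of them stood next to each other in 49 runs, 13 of them on chromosome 10, and 4 runs had 3 or more loci. The longest was Cluster_83445, Cluster_83446, Cluster_83447 and Cluster_83448 on chromosome 10, from 121079726 to 121096938, all without a read in dcl2-mu1. Cluster_83445 held 13.8 and 7.52 CPM in dcl2T and 5.29 and 9.79 CPM in Dcl2. Cluster_83447 held 12.2 and 12.6 CPM in dcl2T and 5.55 and 0.911 CPM in Dcl2. A run of 3 on the same chromosome was led by Cluster_79278 (8711586 to 8718253), with no read in dcl2-mu1, 65.2 and 69.3 CPM in dcl2T, and 50.2 and 52.6 CPM in Dcl2. Outside chromosome 10, the 2 runs of 3 or more loci had few reads in dcl2T. On chromosome 8, Cluster_66598 (44997194 to 45000420) had none in dcl2-mu1, 1.15 and 0.406 CPM in dcl2T, and 21.2 and 37.6 CPM in Dcl2. On chromosome 2, Cluster_16868 (108669531 to 108670676) had none in dcl2-mu1, 0.688 and 0.203 CPM in dcl2T, and 9.08 and 4.78 CPM in Dcl2. Shorter runs could differ, as Cluster_25048 on chromosome 3 (60756789 to 60758591), in a run of 2, had none in dcl2-mu1, 18.1 and 20.5 CPM in dcl2T, and 18.7 and 16.2 CPM in Dcl2. With dcl2-mu1 replicate 1 left out, 142 of 992 loci missing in dcl2-mu1 alone had another within 10 kb and 280 within 100 kb. In the other patterns, 2 of 148, 2 of 58 and 0 of the rest had another of their kind within 10 kb. These patterns hold fewer loci, which makes a neighbour of the same kind less likely, so the counts cannot be compared directly. No such share is given for the pool.

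The 58 loci read only in Dcl2 were missing in both mutants. The most abundant, Cluster_85113 on an unplaced scaffold (96681 to 97476), had no read in dcl2-mu1 or dcl2T and 25.7 and 32.6 CPM in Dcl2. It was at least 58.6-fold lower in dcl2-mu1 and at least 90.1-fold lower in dcl2T. Cluster_83670 on chromosome 10 (126203630 to 126204747) had none in the mutants and 19.4 and 35.3 CPM in Dcl2. Cluster_62212 on chromosome 7 (125169053 to 125169166) had none in the mutants and 35.3 and 13.7 CPM in Dcl2, and Cluster_74446 on chromosome 9 (57986104 to 57986275) had none in the mutants and 21.7 and 25.3 CPM in Dcl2. These levels are lower than those of the most abundant loci missing in dcl2-mu1 alone, and no locus of this pattern reached 50 CPM. The median level of the pattern was 6.47 CPM, against 5.51 CPM for loci missing in dcl2-mu1 alone.

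The loci read only in Dcl2 lay in the inner parts of the chromosomes. Of the 51 on chromosomes, 74.5% were more than 30% of the chromosome length from the nearer end, against 32.3% of the pool, and their median distance was 36.4% against 19.7%. The loci missing in dcl2-mu1 alone were nearer to the pool, at 38.3% and a median of 24.1%. With dcl2-mu1 replicate 1 left out, 70.9% of 55 loci read only in Dcl2 and 37.0% of 976 missing in dcl2-mu1 alone lay that far in. As many as 23 of the 51 lay in 5 windows of 10 Mb that held 2.05% of the placed pool. These windows were 130 to 140 Mb of chromosome 1 with 4 loci, 80 to 90 Mb of chromosome 3 with 4, 110 to 120 Mb of chromosome 4 with 6, 100 to 110 Mb of chromosome 5 with 5, and 50 to 60 Mb of chromosome 9 with 4. The windows were chosen for holding many such loci, so this count has no test.

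**Figure D5:**
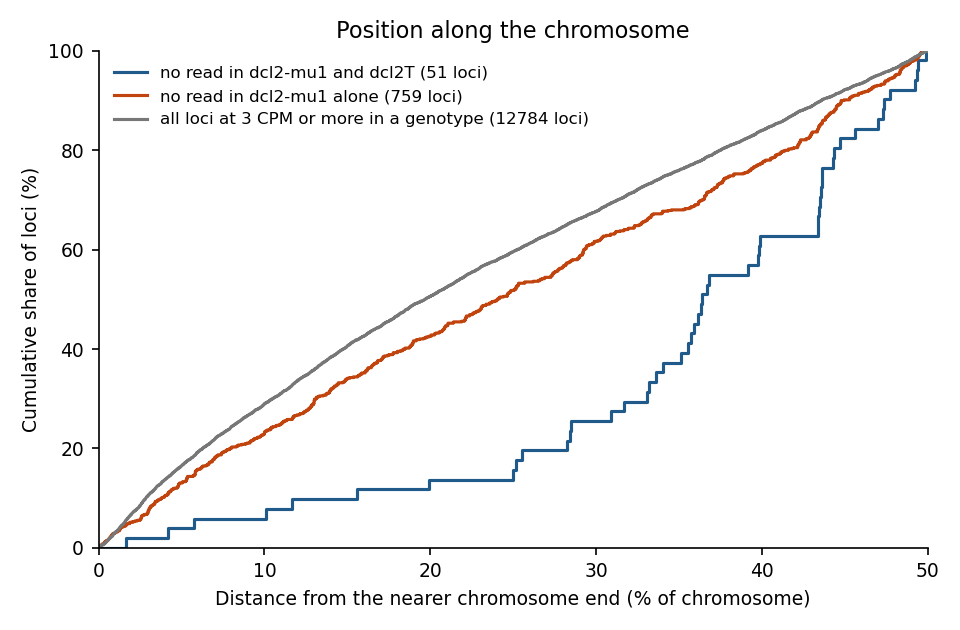
Cumulative share of loci (y axis, percent) against the distance from the nearer chromosome end in percent of the chromosome (x axis), for loci without a read in dcl2-mu1 and dcl2T, loci without a read in dcl2-mu1 alone, and the pool of loci at 3 CPM or more in a genotype. The median distance was 36.4% for the loci read only in Dcl2, 24.1% for those missing in dcl2-mu1 alone and 19.7% for the pool.

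Loci missing in dcl2-mu1 alone were also counted in these 5 windows, which were chosen for loci missing in both mutants. There 56 of 262 pool loci (21.4%) were missing in dcl2-mu1 alone, against 5.61% in other windows. Of the 56, 48 reached 3 CPM only in Dcl2, 85.7% against 35.7%. The windows were chosen on the same 6 libraries, and loci of these patterns can differ by a few dcl2T reads. These shares are therefore not separate evidence about the windows. Over the 181 pool loci of the windows that were absent from no genotype, the median log2 ratio was -0.15 for dcl2-mu1 over Dcl2 and 0.23 for dcl2T over Dcl2, against 0.19 and 0.22 over 11568 such loci in other windows. With dcl2-mu1 replicate 1 left out, 23 of 55 loci read only in Dcl2 lay in the windows (41.8%). With a Dcl2 library left out, it was 34 of 155 or 32 of 168. In the window on chromosome 5, Cluster_46281 (108922008 to 108924373) had no read in dcl2-mu1, 1.15 and 3.05 CPM in dcl2T, and 24.96 and 16.2 CPM in Dcl2. Cluster_46217 (106560504 to 106561054) had none in dcl2-mu1, 0 and 0.406 CPM in dcl2T, and 12.1 and 14.8 CPM in Dcl2. Cluster_46241 (107555100 to 107555421) had none in dcl2-mu1, 0 and 0.203 CPM in dcl2T, and 10.1 and 16.4 CPM in Dcl2. Cluster_46217 and Cluster_46241 differ from those read only in Dcl2 by no more than 2 reads in dcl2T.

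Some loci read only in Dcl2, 12 of the 58, stood beside loci missing in dcl2-mu1 alone. Within 10 kb, 28 pairs of neighbouring absent loci had different patterns, and 16 of the 28 joined these patterns. Loci missing in dcl2-mu1 alone were 772 of the 1058 absent loci, and no expected number of such pairs is given. The 16 pairs held 12 loci read only in Dcl2 and 15 loci missing in dcl2-mu1 alone, and 14 of the 15 had under 3 CPM in both dcl2T libraries. The same count over all 772 loci is not given. Of the 772, 307 reached 3 CPM in both libraries of Dcl2 and not in both of dcl2T. On chromosome 8, Cluster_66617 (45933578 to 45934474) had no read in either mutant and 10.3 and 17.1 CPM in Dcl2. Its neighbour Cluster_66616 (45932196 to 45932982) had none in dcl2-mu1, 0.918 and 0.610 CPM in dcl2T, and 18.7 and 39.4 CPM in Dcl2. On chromosome 1, Cluster_5317 (135646792 to 135648065) had no read in the mutants and 14.9 and 11.2 CPM in Dcl2, and Cluster_5319 (135653980 to 135655717) had none in dcl2-mu1, 1.84 and 0.610 CPM in dcl2T, and 36.1 and 7.74 CPM in Dcl2. The lack of dcl2-mu1 reads at both neighbours of a pair follows from the patterns joined. At Cluster_66616 and Cluster_5319 the dcl2T libraries had reads and lay below both Dcl2 libraries.

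Loci missing in dcl2T alone were few. Their median level was 6.09 CPM, against 5.63 CPM over all absent loci. Cluster_22948 on chromosome 3 (7423358 to 7423826) had 30.8 and 13.0 CPM in dcl2-mu1, none in dcl2T, and 1.76 and 0 CPM in Dcl2, at least 67.6-fold lower in dcl2T than in dcl2-mu1. Cluster_33525 on chromosome 4 (31567375 to 31567810) had 11.3 and 16.4 CPM in dcl2-mu1, none in dcl2T, and 0 and 9.79 CPM in Dcl2. Cluster_45476 on chromosome 5 (84142940 to 84143091) had 0 and 0.490 CPM in dcl2-mu1, none in dcl2T, and 14.4 and 18.9 CPM in Dcl2. Cluster_66824 on chromosome 8 (54297310 to 54299408) had 0 and 1.22 CPM in dcl2-mu1, none in dcl2T, and 11.3 and 18.9 CPM in Dcl2. None of the 36 reached 3 CPM in both libraries of both other genotypes. Only 4 of the 36 (11.1%) lay within 2-fold between dcl2-mu1 and Dcl2, against 49.4% of the pool. The loci missing in dcl2T alone were thus mostly unequal between the other genotypes. The rule asked for 3 CPM in only 1 of these and so let in loci that were low in the other.

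Loci missing in Dcl2 had reads in a mutant and none in wild type. Besides Cluster_9898, Cluster_5568 on chromosome 1 (145381745 to 145381765), a locus of 21 bp, had 166 and 36.7 CPM in dcl2-mu1, 128 and 91.5 CPM in dcl2T, and none in Dcl2. It was at least 282.6-fold higher in dcl2-mu1 and at least 306-fold higher in dcl2T than in Dcl2. Cluster_54196 on chromosome 6 (98322752 to 98323949) was more even, with 102 and 109 CPM in dcl2-mu1, 94.8 and 142 CPM in dcl2T, and none in Dcl2. Cluster_16362 on chromosome 2 (92962264 to 92963001), named after its values were seen, had 23.1 and 21.5 CPM in dcl2-mu1, 20.0 and 18.5 CPM in dcl2T, and none in Dcl2, so that all 4 mutant libraries were alike. Cluster_39651 on chromosome 4 (204951235 to 204952263) had 38.5 and 32.3 CPM in dcl2-mu1, 0 and 2.03 CPM in dcl2T, and none in Dcl2. The median log2 ratio of dcl2-mu1 over dcl2T was 1.66 over the 148 loci and -0.13 over the pool, and 33 of the 148 (22.3%) lay within 2-fold between the mutants, against 52.4% of the pool.

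Of the 32 loci read only in dcl2T, 3 reached 50 CPM, against 1381 of 12917 in the pool. This level was reached by 7 of the 772 loci missing in dcl2-mu1 alone and 3 of the 148 missing in Dcl2 alone. None of the 12 read only in dcl2-mu1 reached 50 CPM. Beyond Cluster_26293 and Cluster_41972, the 2 largest in dcl2T at 340 and 417 CPM and at 146 and 144 CPM, Cluster_30070 on chromosome 3 (202252895 to 202252987) had 73.7 and 31.3 CPM in dcl2T. Cluster_6729 on chromosome 1 (176704597 to 176704921) had 13.5 and 39.6 CPM in dcl2T, and none of these 4 had a read in another genotype. In dcl2-mu1, Cluster_2812 on chromosome 1 (62713619 to 62714674) had 41.5 and 42.6 CPM and no read in dcl2T or Dcl2, at least 117-fold higher than in Dcl2. The next 3 were uneven between the libraries. Cluster_22178 on chromosome 2 (237344494 to 237344761) had 47.7 and 4.90 CPM in dcl2-mu1, Cluster_65723 on chromosome 8 (19428934 to 19429030) had 26.7 and 5.63 CPM, and Cluster_74592 on chromosome 9 (62805482 to 62805621) had 22.6 and 3.43 CPM.

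The fit across all loci called few of the absent loci. All 1058 passed the filter on low counts, which the limit of 3 CPM in 2 libraries ensured. edgeR's quasi-likelihood test called 22 of them between dcl2-mu1 and Dcl2, with limits of 0.01 on the adjusted p and 2 on the size of the log2 fold change, beside 0.421% of the 22558 loci tested. Of these, 19 were lower in dcl2-mu1 (0.186% of loci tested) and 3 higher (0.235%). Between dcl2T and Dcl2 it called 3, all higher in dcl2T, beside 0.0266% of loci tested in either direction and 0.0177% higher. It called 0 lower in dcl2T (0.00887% of loci tested), with 207 at an unadjusted p under 0.05 in edgeR, and DESeq2 called 53 in either direction. Between dcl2-mu1 and dcl2T it called 17, all lower in dcl2-mu1, beside 0.364% of loci tested in either direction and 0.199% lower. None was called higher there (0 of 1058, beside 0.164% of loci tested), with 60 at an unadjusted p under 0.05 in edgeR, and DESeq2 called 100 in either direction. The rule used these contrasts, so the counts say nothing further of the loci. No share over all loci tested is given beside the counts at an unadjusted p or those of DESeq2. On chromosome 10 lay 8 of the 19 loci that dcl2-mu1 had lower than Dcl2 and 8 of the 17 it had lower than dcl2T. Chromosome 10 held 19.4% of all loci missing in dcl2-mu1 alone and 7.14% of the pool. Its share of all loci tested or called is not given here. When Dcl2 replicate 1 or 2 was omitted, 0 of the 1058 were called by edgeR between dcl2-mu1 and Dcl2 and 0 between dcl2T and Dcl2. Without Dcl2 replicate 1 or 2 it called 3 or 2 between dcl2-mu1 and dcl2T.

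The loci at the limit had few reads. Cluster_2640 on chromosome 1 (58283478 to 58284008) was among the loci taken nearest above the limit. It had no read in dcl2-mu1, 0.918 and 3.66 CPM in dcl2T, and 3.03 and 4.10 CPM in Dcl2. Cluster_85187 on an unplaced scaffold (48823 to 50412) was the nearest left out, with no read in dcl2-mu1, 2.98 and 3.66 CPM in dcl2T, and 1.26 and 0.455 CPM in Dcl2. The lower library of the present genotype lay from 3 to under 4 CPM at 447 of the absent loci and at 10 CPM or more at 137. A further 1345 loci with a count of 0 in both libraries of a genotype lay from 2 to under 3 CPM and were not taken.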

How the data were processed

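Small RNA from pollen of dcl2-mu1, dcl2T and Dcl2 plants was sequenced with 2 biological replicates each, and samples were grouped by their labels. The authors trimmed adapters with cutadapt, removed random bases at both read ends, filtered structural RNA with bowtie2 and grouped reads into loci with ShortStack. Their methods give a minimum of 5 CPM for finding loci, and only loci with a size bias were kept for their later steps. Whether identical reads were collapsed, and how reads with several equally good places were counted, is not stated in the study's methods or the labels. Values of loci with near-identical copies are therefore uncertain. The deposited values are raw counts per locus and library. A further deposited column of counts equalled the sum of the 6 libraries and was not used. CPM was the count divided by the library total.

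The loci, the patterns and the lists were chosen with earlier results of these data known. Named loci are the 4 most abundant of each pattern (the more abundant of those within 10 kb), the loci nearest to 3 CPM on either side, and the 3 most abundant in the 3 windows of 10 Mb with most loci of 1 pattern, with ties taken in chromosome order. Other loci, among them all those in runs or pairs, were named after their values were seen.

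edgeR 4.0.16 in R 4.3.3 was fitted to 6 libraries and 22558 loci (filterByExpr with a minimum count of 10 and total of 15, TMM factors, glmQLFit, 1 coefficient per genotype), with Benjamini-Hochberg adjustment over all of them. It was tested on simulated data. DESeq2 1.42.0, other scalings, no filter, a replicate block, other limits, thinned counts and leaving out each library were alternatives. The chromosome 10 share under each alternative, and levels, lengths and positions without dcl2-mu1 replicate 1, were added after the data were seen. Python 3.11.15 with numpy 2.4.6 and pandas 2.3.3 was used for the other steps.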

Additional observations from a re-analysis of the deposited data

How the results depend on the processing

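The number of absent loci depended on the limits. With 1 CPM in place of 3 CPM the rule found 6628 loci, with 4805 missing in dcl2-mu1 alone, 191 in dcl2T alone, 923 in Dcl2 alone, 167 in dcl2-mu1 and dcl2T, 507 in dcl2-mu1 and Dcl2, and 35 in dcl2T and Dcl2. With 10 CPM the counts were 137, 95, 5, 17, 13, 6 and 1 in the same order. Counting a single read as absent moved the loci missing in dcl2T alone to 65 and those missing in dcl2T and Dcl2 to 22. Thinning to equal depth gave 1628 loci, with 83 missing in dcl2T alone, 303 in Dcl2 alone, 67 in dcl2-mu1 and Dcl2, and 28 in dcl2T and Dcl2. With each library left out in turn, the rule needs fewer zeros and fewer passes, and the counts ranged from 1781 to 4941 in all, from 992 to 3530 for dcl2-mu1 alone, from 83 to 236 for dcl2T alone, from 276 to 861 for Dcl2 alone, from 62 to 179 for dcl2-mu1 and dcl2T, from 37 to 268 for dcl2-mu1 and Dcl2, and from 18 to 186 for dcl2T and Dcl2. Loci missing in dcl2-mu1 alone were the most numerous under all of these alternatives. The chromosome 10 share of these was 11.8% with 1 CPM and ranged from 9.86% to 17.8% with a library left out, lowest without dcl2-mu1 replicate 2. The cause was not tested. With 100 kb in place of 10 kb, 244 absent loci in place of 124 had another of the same pattern nearby, and at 10 kb without dcl2-mu1 replicate 1 the count was 158.

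The calls among the absent loci moved with the method. Between dcl2T and Dcl2, between dcl2-mu1 and Dcl2 and between dcl2-mu1 and dcl2T, DESeq2 called 53, 231 and 100 in place of 3, 22 and 17, and edgeR without the filter called 50, 188 and 105. The alternatives are given without the share called over all loci. Library size alone gave 5 between dcl2T and Dcl2. Leaving out a library gave 0 to 5, 0 to 36 and 2 to 11 calls. With the replicate number as a block edgeR called 7, 53 and 27. The numbers do not pair the samples by the labels, and the deviations of same-numbered libraries correlated at 0.0017, -0.0086 and -0.013, so the samples share only a number. TMM-scaled CPM moved the mean of 8 of 34 named loci by more than the spread between replicates and thinning that of 2.

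Depth limits these results. A locus of 3 CPM had between 5.85 and 14.8 counts, dcl2-mu1 replicate 1 was the shallowest library, and a count of 0 does not show that a locus makes no small RNA. Each genotype had 2 libraries.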

Other observations

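Of the 1058 absent loci, 5 were 30 bp long or shorter, against 35 in the pool of 12917 loci, and these were named after their values were seen. Besides Cluster_9898 and Cluster_5568, they were Cluster_16129, Cluster_36023 and Cluster_61790. Cluster_16129 on chromosome 2 (85886652 to 85886678) had 7.69 and 3.92 CPM in dcl2-mu1, no read in dcl2T, and 0 and 6.15 CPM in Dcl2. Cluster_36023 on chromosome 4 (110415972 to 110415995) had no read in dcl2-mu1 or dcl2T and 4.79 and 10.5 CPM in Dcl2. Cluster_61790 on chromosome 7 (115007001 to 115007022) had none in dcl2-mu1, 8.26 and 4.47 CPM in dcl2T, and 0 and 22.3 CPM in Dcl2. At 3 of the 5 loci the replicates of a genotype disagreed on whether the locus was present.

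The window from 40 to 50 Mb of chromosome 8 held 11 loci missing in dcl2-mu1 alone among 27 loci of the pool. It was not among the 3 windows with most such loci.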
